A study of Mus musculus with 14 samples.

Results

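Mouse embryonic fibroblasts (MEFs) with a targeted H3f3a gene were compared with wild-type (WT) MEFs by counting the 3′ ends of polyadenylated transcripts. The comparison uses the 8 MEF libraries of a series of 14: 5 labelled KO and 3 labelled WT, each from an independent primary line, untreated, and taken by these labels. The lines were grown from mouse embryos at E13.5, from the body left after the head and the internal organs had been taken away, so they are mixed connective tissue cells of trunk and limb. The KO lines carry a targeted H3f3a allele that the series title describes as knockout-first, a design in which a cassette is placed in the gene before any exon is removed. Whether the allele was on 1 or both chromosomes, the strain, the litters and the sex of the embryos are stated neither in the labels nor in the series text.

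H3f3a and H3f3b both encode histone H3.3. Replicative H3 is made in S phase and laid down behind the replication fork, whereas H3.3 is made throughout the cell cycle and is placed by the chaperones HIRA and DAXX-ATRX, at active genes and regulatory elements in the first case and in repeats and telomeres in the second. In dividing fibroblasts H3.3 therefore replaces nucleosomes lost outside replication, and its messages, unlike those of replicative histones, are polyadenylated and so can be counted by this assay.

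The coding sequences of both genes show how an identical protein can be followed as 2 separate transcripts. In the GENCODE M21 transcripts H3f3a-205 (coding part between 180803077 and 180811926 on the minus strand of chromosome 1, GRCm38) and H3f3b-201 (between 116023407 and 116024009 on the minus strand of chromosome 11) the reading frame is 411 bases long. The first 150 bases are printed because they carry 32 of the differences, which stand in capitals:
H3f3a-205: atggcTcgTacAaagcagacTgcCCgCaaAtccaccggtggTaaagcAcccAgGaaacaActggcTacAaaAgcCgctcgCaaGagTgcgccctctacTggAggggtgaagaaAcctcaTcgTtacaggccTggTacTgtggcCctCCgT
H3f3b-201: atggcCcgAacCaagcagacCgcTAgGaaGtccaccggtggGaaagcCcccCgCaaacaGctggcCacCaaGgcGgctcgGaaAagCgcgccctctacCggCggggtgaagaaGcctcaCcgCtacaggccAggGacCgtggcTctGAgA
Over the whole frame 95 bases differ, 81 of them at the last position of a codon, and the 136 codons before the stop encode the same amino acids. Identical bases make up 76.9% of the frame, and the last codon position is G or C in 44.5% of H3f3a codons and 70.1% of H3f3b codons. No word of 31 bases occurs in transcripts of both genes, so reads of that length from either gene are distinguishable.

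H3f3a transcripts were at 833, 1417 and 842 CPM (counts scaled to library size by the TMM method of edgeR) in WT MEFs 1 to 3. In KO MEFs 1 to 5 they were at 16.7, 18.6, 18.3, 7.16 and 14.8 CPM. All KO lines lay far below all WT lines, but none was at 0: the KO values rest on 49, 55, 38, 21 and 40 counts, the WT values on 2134, 3967 and 2804. H3f3a fell by 6.09 on the log2 scale in KO MEFs (SE 0.32, 95% interval -6.82 to -5.36, edgeR quasi-likelihood test with Benjamini-Hochberg adjustment, adjusted p = 0.000115, lower in 5 of 5 KO lines). An exact permutation test of log2 CPM, two-sided, gave p = 0.0357, which is the lower limit for groups of 3 and 5. These tags count transcripts that reach the 3′ end of the gene. Transcripts that stop earlier, and the protein, were not measured.

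H3f3b, the intact gene for H3.3, stood at 1420, 1868 and 1230 CPM in WT MEFs 1 to 3 and at 1355, 1517, 2185, 1100 and 1264 CPM in KO MEFs 1 to 5. The groups overlapped, with the highest WT value in WT MEFs 2 and the highest KO value in KO MEFs 3. Its log2 difference was -0.02 (SE 0.23, 95% interval -0.54 to 0.50, edgeR adjusted p = 1.00), and the interval does not exclude changes of this size in either direction. H3f3a and H3f3b summed to 2253, 3285 and 2072 CPM in the WT lines and to 1371, 1535, 2204, 1108 and 1279 CPM in the KO lines. Of the KO lines only KO MEFs 3, with their highest H3f3b level, reached the WT range. WT MEFs 2 likewise had the highest H3f3b level and sum of the WT lines, and the sum in KO MEFs 3 was 67.1% of that in WT MEFs 2. The mean sum of the other KO lines was 61.2% of that of the other WT lines. The KO mean of the sum, 1499 ± 423 CPM (SD, n = 5), was 59.1% of the WT mean, 2537 ± 654 CPM (SD, n = 3), with an exact two-sided permutation p of 0.0714. H3f3a gave 37.0% to 43.1% of this sum in WT lines and 0.647% to 1.21% in KO lines.

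**Figure D1:**
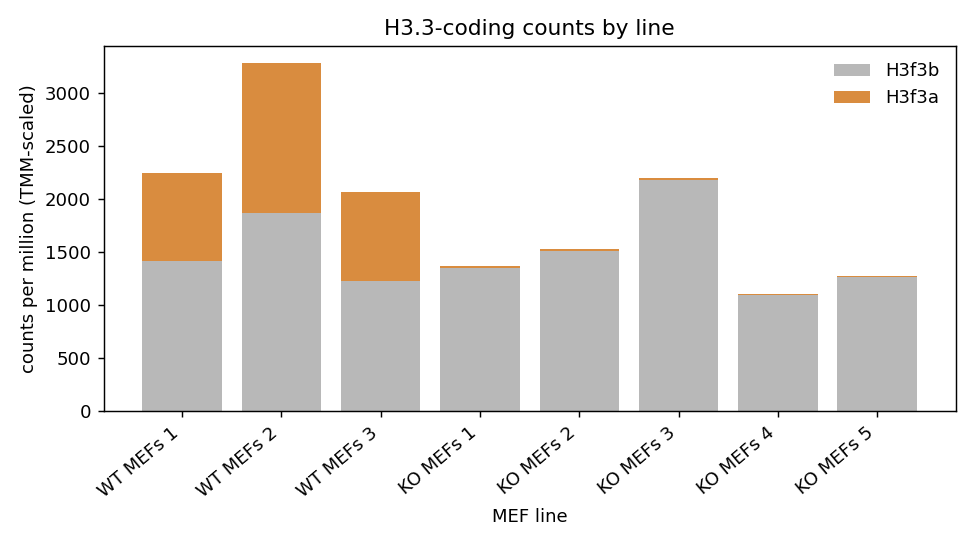
Stacked bars of TMM-scaled CPM for H3f3b (grey) and H3f3a (orange) in each of the 8 MEF lines. The H3f3a part is 833 to 1417 CPM in WT lines and 7.16 to 18.6 CPM in KO lines, and the H3f3b part overlaps between the genotypes.

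The other H3 genes were close to the detection limit. Hist1h3d, a replicative H3 gene, had 194 counts over all 8 lines and Hist2h3c1 had 150. The processed copies H3f3a-ps1, H3f3a-ps2 and H3f3c had 0 counts in these lines.

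The 8 lines were not alike within genotype, and the largest difference between them did not follow the labels. WT MEFs 2 and KO MEFs 3 stood apart from the other 6 on a first principal component that held 53.01% of the variance of log2 CPM (72.6 and 67.3 against -29.1 to -18.7). Pearson's r across genes, which are not independent replicates, was 0.952 between these 2 lines, 0.850 to 0.881 between either and any other line, and 0.948 to 0.970 among the other 6. Depth did not separate them, at 2743644 and 2080821 counts in genes against 2655381 to 3296203, although KO MEFs 3 was the shallowest. The counts over gene lists are therefore given with all lines and, as a setting added after the data were seen, without this pair.

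**Figure D2:**
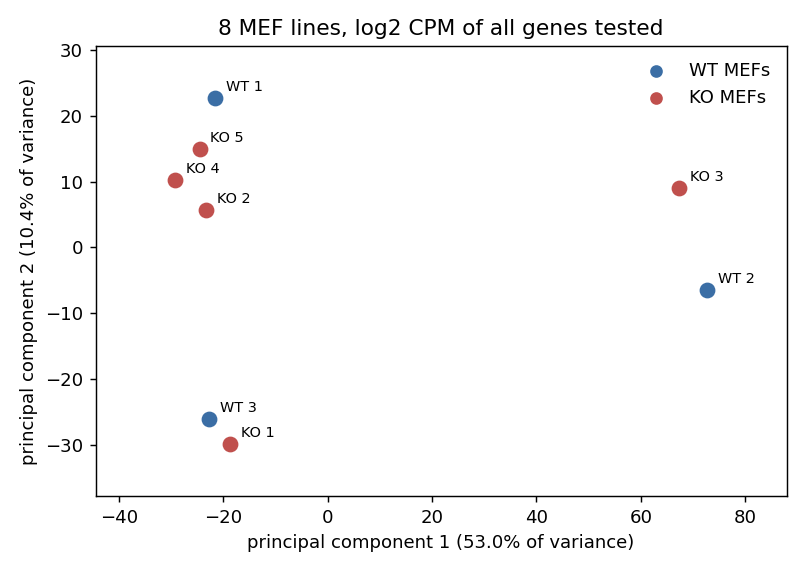
First and second principal components of log2 CPM over the 10785 genes tested, 1 point a line, WT in blue and KO in red. WT 2 and KO 3 lie at 72.6 and 67.3 on the first component and the other 6 lines between -29.1 and -18.7, with both genotypes on each side.

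Genes of body position were among those that differed between this pair and the rest. Hoxd13, the Hox gene of the most distal limb, was at 248 CPM in WT MEFs 2 and 208 CPM in KO MEFs 3, against 4.09 to 32.0 CPM in the other 6 lines. Hoxa13 was at 50.02 and 48.2 CPM against 1.35 to 5.92 CPM, and Tbx4, a hindlimb factor, at 82.5 and 67.0 CPM against 3.302 to 6.64 CPM. The trunk gene Hoxc6 had the opposite pattern, at 13.6 and 32.8 CPM against 82.0 to 133 CPM, as did Hoxb9 at 1.43 and 7.23 CPM against 30.1 to 50.3 CPM. The pair was not alike in every positional gene. Tbx5 was at 6.07 CPM in WT MEFs 2 and 35.7 CPM in KO MEFs 3, against 1.56 to 5.40 CPM in the other lines. Foxd1 was at 2.50 and 31.8 CPM, against 2.70 to 11.3 CPM. Each genotype thus holds 1 line with high distal limb genes, 1 of 3 in WT and 1 of 5 in KO, a share that differs between the groups. Of 44 positional genes 41 were tested, 24 with a higher and 17 with a lower log2 value in KO (median 0.20), and 22 and 18 without the pair (median 0.05), and none passed. Hoxd10 had the smallest p of the list, at 5.86, 16.4 and 7.20 CPM in the WT lines and 4.08, 2.36, 8.68, 0.682 and 0.740 CPM in the KO lines (log2 -1.61, SE 0.73), with overlap between the genotypes.

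**Figure D3:**
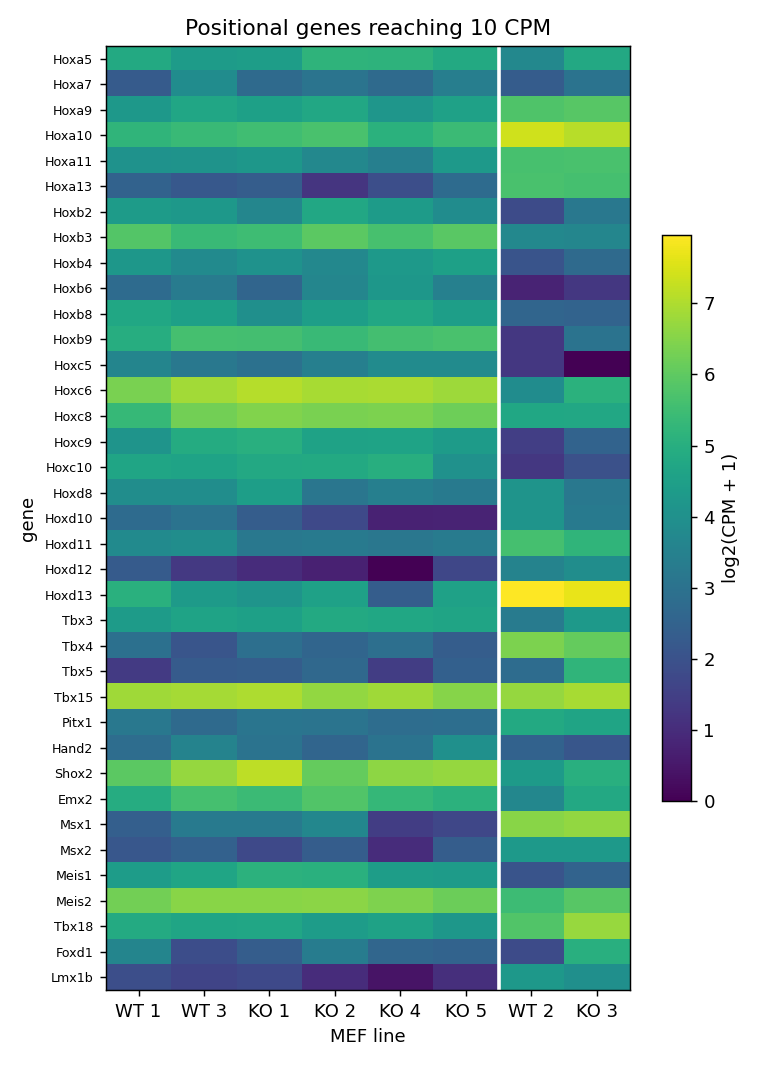
Heat map of log2(CPM + 1) for the positional transcription factors that reached 10 CPM in at least 1 line, with WT 2 and KO 3 placed to the right of the white line. Hoxd13, Hoxa13, Hoxa10 and Tbx4 are high and Hoxc6, Hoxc9 and Hoxb9 low in both of these lines, and Tbx15 lies between 90.3 and 126 CPM in all 8.

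All lines carried the message of fibroblasts. Col1a1, a chain of type I collagen, ran from 4971 to 7935 CPM, Vim from 3810.2 to 4844 CPM and Prrx1, a limb mesenchyme factor, from 693 to 1148 CPM, and 19 of 20 fibroblast markers were tested. Markers of other cell types ranged from 0 to high levels. None of 10 red cell genes was tested and 8 had no count. Myod1 had 0 counts, while the muscle actin gene Acta1 was at 9.29 to 63.6 CPM. Epithelial markers summed to 7.86 to 21.1 CPM in WT lines and 9.64 to 28.9 CPM in KO lines. Genes of cartilage and bone summed to 1449.9 to 3401 CPM in the WT lines and 998 to 2423 CPM in the KO lines. Most of that was Spp1, a secreted phosphoprotein of bone and of other cells, at 606 to 3004 CPM, while Sox9, the factor of cartilage precursors, was at 84.3 to 338 CPM. Endothelial genes summed to 61.5 to 261 CPM in the WT lines and 50.1 to 505 CPM in the KO lines. Among them Flt1, a VEGF receptor gene, was at 34.2 to 466 CPM and the defining marker Pecam1 at 0.357 to 5.46 CPM. Fat cell genes summed to 249 to 509 CPM in the WT lines and 211 to 281 CPM in the KO lines, and neural genes to 112 to 174 CPM in the WT lines and 111 to 153 CPM in the KO lines. No tested member of these lists passed. Y-linked Ddx3y was at 206, 214 and 211 CPM in WT MEFs 1, KO MEFs 1 and KO MEFs 5 and at 0 in the other 5, so lines with and without Y-linked transcripts occurred in both genotypes.

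Outside H3f3a itself the test called no gene. Of 10785 genes tested 1 passed (0.00927%), and it was the targeted one. The mean log2 differences were small: their median size was 0.15, and 202 genes exceeded 1 in either direction. KO values above WT made up 49.8% of the genes, and the median over all genes was 0.00. At an unadjusted p under 0.05 edgeR listed 175 genes (1.62%), and the ranges of the genotypes were disjoint for 204 genes (1.89%). A test that keeps its nominal level lists a share of about 0.05 when genotype has no effect. The lower share found here is therefore no evidence that few genes change. When the first residual component was added as a covariate, an unplanned setting, edgeR listed 693 of 10785 genes at that level, and 1 passed. That component was computed from the spread within genotype of these same lines. The larger number is therefore not by itself evidence that more genes change. Why the share was low with all lines was not tested.

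How far this limits a change can be read from the intervals. For 64.7% of the genes the 95% interval lay within 2-fold in both directions. The share was 88.6% for the 2043 genes with a mean of 100 CPM or more and 83.3% for those from 20 to 100 CPM, but 43.2% from 5 to 20 CPM and 3.47% below 5 CPM. A 4-fold change lay outside the interval for 92.8% of the genes. Changes were also simulated in 200 genes at 10 CPM or more, with the depth and the spread per gene of these lines. The test found 88% of the 4-fold and 26% of the 2-fold changes, so in that setting most 2-fold changes were missed. Counts were drawn independently for each gene. The difference that WT MEFs 2 and KO MEFs 3 share over many genes was therefore not simulated, and the shares found may not hold for the real lines.

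Without WT MEFs 2 and KO MEFs 3 the edgeR test called 3 of 10875 genes (0.0276%): H3f3a (log2 -5.87, adjusted p = 1.03e-05), Ak6 and Gm48499. Values above WT were then 50.3% of the genes. Gm48499, a processed pseudogene on chromosome 13 (16943846 to 16945569), was at 0, 10.7 and 0 CPM in WT MEFs 1 to 3 and at 9.18, 6.75, 15.4, 17.1 and 12.9 CPM in KO MEFs 1 to 5. WT MEFs 2 was the 1 WT line with counts, and leaving out that line alone did not call the gene (edgeR adjusted p = 0.131). Ak6, an adenylate kinase gene, was at 240, 37.2 and 166 CPM in the WT lines and 52.7, 66.5, 27.5, 51.5 and 49.6 CPM in the KO lines. The overlapping gene Taf9 ran the other way, at 46.5, 148 and 126 CPM in the WT lines and 225, 212, 220, 163 and 242 CPM in the KO lines. In the annotation 99.9% of the 31-base words in the last 500 bases of Taf9 transcripts also occur in Ak6 transcripts, so the deposited counts of the 2 genes are uncertain. Their sum was 254 ± 60.04 CPM in WT (SD, n = 3) and 262 ± 31.2 CPM in the KO lines (SD, n = 5).

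The genes below are the 20 with the smallest unadjusted p after H3f3a among those reaching 10 CPM in the higher group, with at most 5 predicted genes or pseudogenes. None of them passed by edgeR (adjusted p = 1.00 for each), and they were picked for their separation, so that 19 of 20 without overlap is a property of the choice. All 20 kept the sign of their log2 value in the fit without the pair of lines, which the lack of overlap fixes in advance for those 19. 11 were higher and 9 lower in KO.

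Signalling and clock genes are among them. Bmper, for a secreted protein that binds BMPs, was at 11.7, 12.1 and 14.4 CPM in the WT lines and 25.8, 24.6, 24.6, 19.8 and 15.5 CPM in the KO lines (log2 difference 0.79, SE 0.23, unadjusted p = 0.00754 by edgeR). The lowest KO line, KO MEFs 5, stood just above the highest WT line. Cry1, a repressor of the circadian clock, was at 17.6, 19.3 and 15.9 CPM in the WT lines and 10.9, 12.1, 9.64, 9.89 and 11.8 CPM in the KO lines (-0.69, SE 0.20, unadjusted p = 0.00775 by edgeR). Gnai1, for an inhibitory G protein subunit, was at 18.3, 16.8 and 10.5 CPM in the WT lines and between 24.8 and 30.4 CPM in the KO lines. Ppp1r11, an inhibitor of protein phosphatase 1, was at 37.9, 41.4 and 43.2 CPM in the WT lines and 47.9, 59.4, 57.4, 62.8 and 57.3 CPM in the KO lines. In each of these 4 the genotypes did not overlap, and each difference is under 1 on the log2 scale.

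Genes of mitochondria, protein modification and the cell surface follow. Mrpl40, a protein of the mitochondrial ribosome, was at 25.8, 27.9 and 17.4 CPM in the WT lines and 40.8, 35.1, 36.6, 34.1 and 32.6 CPM in the KO lines. Surf1, which helps to assemble respiratory complex IV, was at 5.46, 7.15 and 5.10 CPM in the WT lines and 10.2, 10.5, 11.6, 13.3 and 8.14 CPM in the KO lines, a level near the filter on low counts. Both lay higher in every KO line. Ufc1, the enzyme that conjugates the ubiquitin-like protein UFM1, was at 52.7, 50.7 and 53.4 CPM in the WT lines and 41.5, 28.3, 36.2, 32.7 and 41.8 CPM in the KO lines. Bsg, which encodes the surface glycoprotein basigin, was at 78.1, 92.2 and 81.1 CPM in the WT lines and 54.7, 51.6, 55.0, 73.0 and 64.7 CPM in the KO lines. Iqcc was at 12.1, 18.6 and 15.6 CPM in the WT lines and 11.9, 8.10, 6.27, 6.14 and 7.77 CPM in the KO lines. These 3 lay lower in every KO line, Iqcc by a narrow margin between WT MEFs 1 and KO MEFs 1.

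Of the 20, 5 are predicted or related-sequence genes, whose counts can be shared with copies elsewhere. Tpm3-rs7, a tropomyosin 3 related sequence on chromosome 14 (113314608 to 113316754), was at 121, 94.3 and 119 CPM in the WT lines and 165, 154, 138, 142 and 144 CPM in the KO lines. The parent gene Tpm3 overlapped between the genotypes, at 278 to 436 CPM in the WT lines and 230 to 440 CPM in the KO lines, and 78.6% of the 31-base words of Tpm3-rs7 occur in Tpm3 transcripts, so the split between the 2 is uncertain. 5730507C01Rik was at 6.25, 4.29 and 8.71 CPM in the WT lines and 11.5 to 16.9 CPM in the KO lines, and Gm340 at 3.60 to 5.72 CPM in the WT lines and 8.10 to 12.9 CPM in the KO lines. What these 2 genes do is not stated here, and their levels are low. 2300009A05Rik had the smallest p of the 20, at 21.9, 18.9 and 21.3 CPM in the WT lines and 11.9, 11.8, 12.5, 9.55 and 8.88 CPM in the KO lines (log2 -0.92, SE 0.21, unadjusted p = 0.00146 by edgeR). Gm12346, a transcribed processed pseudogene on chromosome 11 (77293444 to 77295898), was at 166, 152 and 166 CPM in the WT lines and 225, 291, 320.2, 406 and 237 CPM in the KO lines (log2 0.88, SE 0.20). The first was lower and the second higher in every KO line.

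The remaining genes of the group cover a surface receptor, sterol control, junctions and retinoid metabolism. Ildr2, for an immunoglobulin-like domain receptor, was at 10.5, 10.4 and 9.31 CPM in the WT lines and 13.9, 23.6, 21.7, 18.4 and 23.3 CPM in the KO lines (log2 1.00, SE 0.24, unadjusted p = 0.00221 by edgeR). Srebf2, the master factor of cholesterol synthesis, lay at 95.04 to 124 CPM in the WT lines and 137 to 164 CPM in the KO lines. Jcad, for an endothelial junction protein, lay at 63.2 to 72.6 CPM in the WT lines and 43.5 to 51.1 CPM in the KO lines. Rdh5, a retinol dehydrogenase gene, lay at 9.91 to 11.4 CPM in the WT lines and 3.71 to 6.48 CPM in the KO lines, and the ubiquitin ligase gene Trim41 at 28.6 to 33.6 CPM and 13.49 to 20.7 CPM.

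**Figure D4:**
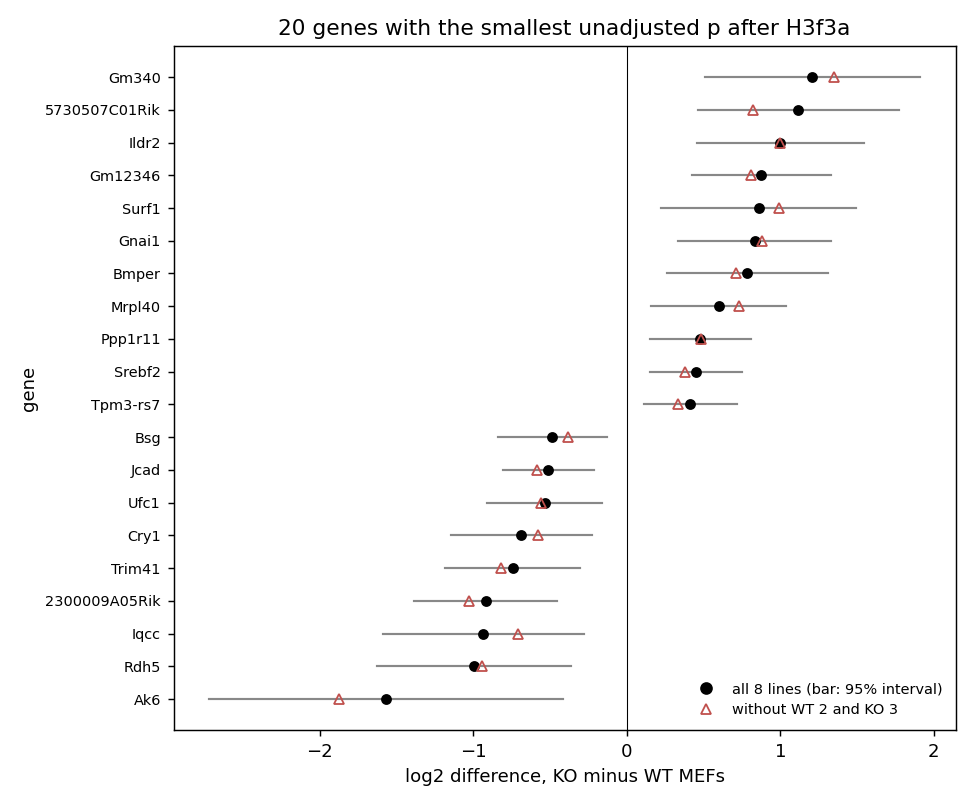
Log2 difference, KO minus WT MEFs, of the 20 genes with the smallest unadjusted p after H3f3a, from all 8 lines (black, with the 95% interval of edgeR) and without WT 2 and KO 3 (red triangles). 11 genes lie to the right of 0 and 9 to the left in both fits, and none passed after adjustment. For the 19 genes without overlap between the genotypes, the sign without the pair was fixed in advance.

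The machinery that places and reads H3 showed no called member. Of 17 chaperones of H3 tested, 11 had a higher and 6 a lower log2 value in KO (median 0.07, against 0.00 over all genes), and 16 had an interval within 2-fold. Atrx, which places H3.3 in heterochromatin with DAXX, lay at 474 to 525 CPM in the WT lines and 452 to 603 CPM in the KO lines (log2 0.07, 95% interval -0.23 to 0.36). Hira, the chaperone of active genes, was at 26.5, 21.1 and 42.0 CPM in the WT lines and 24.4 to 40.5 CPM in the KO lines. Ubn2, a partner of HIRA, had the smallest p of the list, at 47.2, 53.2 and 40.5 CPM in the WT lines and 50.7 to 65.1 CPM in the KO lines (log2 0.29, SE 0.16). Without the pair of lines 13 chaperones were higher and 4 lower (median 0.05).

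Enzymes that set or remove methylation on H3 had no called member either. Of 26 writers and erasers of methylation at lysines 4, 9 and 36 tested, 18 were higher and 8 lower (median 0.08) and 24 had an interval within 2-fold, while without the pair 14 were higher and 12 lower. Setd2, which trimethylates H3 lysine 36, was at 137, 138 and 152 CPM in the WT lines and 156, 152, 189, 164 and 163 CPM in the KO lines (log2 0.21, SE 0.12), with all KO lines above the highest WT line by a narrow margin. Kdm3a, a lysine 9 demethylase, was at 28.9, 27.2 and 30.6 CPM in the WT lines and 36.4, 34.1, 31.8, 40.9 and 37.7 CPM in the KO lines (log2 0.33, SE 0.16). 3 of these 26 genes did not overlap between the genotypes, against 1.89% of all genes tested.

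PRC2, the complex that methylates lysine 27, and its counteracting demethylases had 11 genes tested, 3 higher and 8 lower (median -0.08, without the pair 1 and 10, median -0.07). Ezh2, its catalytic subunit, lay at 130 to 165 CPM in the WT lines and 124 to 215 CPM in the KO lines, and Suz12 at 240 to 287 CPM and 237 to 282 CPM. Both overlapped between genotypes. Jarid2, an accessory subunit, had the smallest p of the list, at 18.3, 14.3 and 21.6 CPM in the WT lines and 11.6, 13.8, 13.98, 15.7 and 19.98 CPM in the KO lines (log2 -0.27, SE 0.24). Among histone genes with polyadenylated transcripts, of 13 tested, 6 were higher and 7 lower (median -0.02), and 4 and 9 without the pair (median -0.07). Hist1h2bc, an H2B gene, had the smallest p of these, at 138, 141 and 101 CPM in the WT lines and 93.8, 82.0, 105, 105 and 127 CPM in the KO lines (log2 -0.31, SE 0.18). Of 28 germline and early embryo genes that chromatin keeps silent in somatic cells none reached the level for testing, and 19 had no count in any line. Their summed level was 2.10 to 4.29 CPM in the WT lines and 1.36 to 8.14 CPM in the KO lines.

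No proliferation gene passed. Of 28 genes of G2 and M phase 23 were higher in KO and 5 lower (median 0.10), and without the pair 25 and 3 (median 0.23). Mki67, the common marker of cycling cells, was at 203, 466 and 246 CPM in the WT lines and 248, 404, 542, 253 and 260 CPM in the KO lines. High values thus occurred in WT MEFs 2, KO MEFs 2 and KO MEFs 3 and not by genotype, and Top2a, which untangles chromosomes, was high in the same 3 lines (1060.4, 820.0 and 1157 CPM against 503.9 to 552 CPM). Cenpe, a motor of the kinetochore, had the smallest p of the G2 and M phase genes, at 256, 282 and 290.0 CPM in the WT lines and 258, 463, 394, 282 and 307 CPM in the KO lines (log2 0.30, SE 0.20). S phase genes had 11 higher and 13 lower (median 0.00), and 19 and 5 without the pair (median 0.14), and Pola1, the catalytic subunit of DNA polymerase alpha, had their smallest p, at 78.5, 83.6 and 101 CPM in the WT lines and 107, 132, 87.8, 104 and 93.6 CPM in the KO lines (log2 0.26, SE 0.17). Of 23 p53 targets and CDK inhibitors 3 were higher and 20 lower (median -0.20), and 7 and 16 without the pair. Cdkn1a, which encodes p21, was at 669, 386 and 483 CPM in the WT lines and 584, 626, 331, 709 and 718 CPM in the KO lines (log2 0.21, SE 0.27). Trp53inp1, a stress-induced p53 target, was at 67.9, 67.5 and 75.6 CPM in the WT lines and 65.3, 26.3, 35.7, 48.1 and 51.4 CPM in the KO lines (-0.63, SE 0.26).

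Matrix and contractile genes had no called member. Of 46 matrix genes 24 were higher and 22 lower (median 0.01), and 21 and 25 without the pair (median -0.02). Postn, which encodes the matrix protein periostin, was at 1031, 2797 and 2192 CPM in the WT lines and 2079.8, 1081, 1076, 1401 and 1101 CPM in the KO lines (log2 -0.57, SE 0.33). Of 16 contractile genes 13 were higher and 3 lower (median 0.17), and without the pair 15 and 1 (median 0.15), with 8 of the 16 intervals within 2-fold. Acta2, smooth muscle actin, was at 2852, 1284 and 2517 CPM in the WT lines and 2538, 3944, 1252, 3025 and 2965 CPM in the KO lines, lowest in WT MEFs 2 and KO MEFs 3. Des, the intermediate filament gene of muscle, had the smallest p of the list, at 3.12, 0.715 and 6.30 CPM in the WT lines and 4.08, 11.1, 5.30, 11.6 and 14.1 CPM in the KO lines (log2 1.42, 95% interval -0.01 to 2.85).

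Cholesterol genes were higher in 20 of 25 and lower in 5 (median 0.17), and 17 and 8 without the pair (median 0.11). Hmgcs1, an early enzyme of the pathway, was lowest in WT MEFs 2 and KO MEFs 3, at 385, 235 and 515 CPM in the WT lines and 537, 302, 230, 464 and 430 CPM in the KO lines. Of 16 imprinted genes 13 were higher and 3 lower (median 0.21), and 12 and 4 without the pair. Gnas, for the stimulatory G protein subunit, had the smallest p of the list, at 8.98, 2.86 and 4.50 CPM in the WT lines and 12.6, 7.08, 12.1, 7.504 and 8.88 CPM in the KO lines (log2 0.82, SE 0.42). Igf2, a growth factor gene active on the paternal copy, was at 659, 90.4 and 929 CPM in the WT lines and 1146, 1438, 163, 699 and 579.7 CPM in the KO lines, so WT MEFs 2 and KO MEFs 3 were lowest.

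Macrophage markers were lower in all 14 tested members (median -1.09), and in 10 of 14 without the pair (median -0.23). None passed. The filter needs enough counts in only 3 lines, so low-level markers could be tested through the WT lines alone. The count of 14 may therefore lean towards lower values in KO. Of 16 markers Cd68 and Aif1 were not tested. Cd68 was at 1.17, 8.57 and 0.300 CPM in the WT lines and 1.69 to 2.38 CPM in the KO lines. Aif1 was at 0.300 to 2.86 CPM in the WT lines and 0 to 0.482 CPM in the KO lines. Lyz2, a macrophage lysozyme gene, was at 45.7, 97.5 and 30.6 CPM in the WT lines and 46.2, 46.5, 7.23, 13.0 and 18.1 CPM in the KO lines. The summed level of all 16 markers was 120 to 305 CPM in the WT lines and 29.7 to 189 CPM in the KO lines, with WT MEFs 2 highest and KO MEFs 3 and 4 lowest. KO MEFs 1 and 2, at 123 and 189 CPM, lay within the WT range. Variation between lines and an effect of genotype cannot be told apart here. Nor can the number of macrophages and the RNA per macrophage be separated in such bulk samples.

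Interferon-stimulated genes had their highest summed level in WT MEFs 2, at 930.4 CPM against 173 to 415 CPM in the other 7 lines. In KO 1 of 17 was higher and 16 lower (median -0.72), but 8 and 9 without the pair (median -0.09). The same filter chose which members were tested, 17 of 30. Lgals3bp, which encodes a secreted galectin-binding protein, was at 17.2, 63.2 and 28.5 CPM in the WT lines and 20.7, 24.3, 11.1, 16.0 and 9.25 CPM in the KO lines (log2 -1.15, SE 0.44). Rtp4, an interferon-induced gene, was at 1.95, 47.5 and 6.30 CPM in the WT lines and 1.71 to 6.41 CPM in the KO lines. WT MEFs 2 was the highest line for both genes, and the macrophage markers were highest in that line too. Their part in the result was not tested.

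The counts for ribosomal protein genes depended on the pair, with no member passing: 56 of 83 were higher and 27 lower with all lines (median 0.05), and 27 and 56 without it (median -0.07). Glycolysis and hypoxia genes had a like shift in the counts, with 15 higher and 5 lower, then 7 and 13. Among 52 tested genes within 5 Mb of H3f3a on chromosome 1, 28 were higher and 24 lower (median 0.03), and 28 and 23 without the pair (median 0.03). Of these 2 did not overlap between the genotypes, against 1.89% of all genes tested, and none passed. Vmn1r1, annotated as a vomeronasal receptor gene (182154704 to 182164486), had the smallest p of these, at 3.90, 3.57 and 4.203 CPM in the WT lines and 9.86, 9.78, 6.75, 4.43 and 6.66 CPM in the KO lines (log2 0.94, SE 0.37). Of the 13 mRNAs of the mitochondrial genome 4 were higher and 9 lower (median -0.05), and 2 and 11 without the pair (median -0.06), and all 13 intervals lay within 2-fold. mt-Nd4l, for a subunit of complex I, was at 383, 361 and 343 CPM in the WT lines and 316, 317, 312, 290 and 318 CPM in the KO lines, without overlap.

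Klf4, a zinc finger factor among 19 immediate early genes tested, was at 118, 110 and 98.2 CPM in the WT lines and 129, 128, 146, 153 and 193 CPM in the KO lines (log2 0.46, SE 0.16, edgeR adjusted p = 1.00). Egr1 of the same group was at 246, 225 and 121 CPM in the WT lines and 101 to 170 CPM in the KO lines (-0.54, SE 0.25). The list as a whole had 8 higher and 11 lower (median 0.00), and 7 and 12 without the pair (median -0.14).

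Stress, repair and signalling lists had no called member either. Among secreted inflammatory genes of senescent fibroblasts, of 19 tested, 10 were higher and 9 lower (median 0.02), and 10 and 9 without the pair (median 0.06). Among genes of unfolded protein and amino acid stress, of 21 tested, 8 were higher and 13 lower (median -0.03), and 7 and 14 without the pair (median -0.09). Atf3, a stress-induced transcription factor, had the smallest p there, at 7.81, 2.14 and 7.80 CPM in the WT lines and 3.74, 1.35, 0.964, 4.09 and 3.33 CPM in the KO lines (log2 -1.10, SE 0.58). Among genes of DNA repair and replication stress, of 24 tested, 10 were higher and 14 lower (median -0.03), and 15 and 9 without the pair (median 0.11). Atr, the replication checkpoint kinase, was at 26.2, 23.2 and 17.7 CPM in the WT lines and 15.3, 20.2, 21.2, 15.01 and 16.6 CPM in the KO lines (log2 -0.34, SE 0.22). Among TGF-beta, BMP and Wnt pathway genes, of 28 tested, 12 were higher and 16 lower (median -0.05), and 16 and 12 without the pair (median 0.08). Id3, a target of BMP signalling, was at 302, 789 and 198 CPM in the WT lines and 220.2, 507, 728, 231 and 356 CPM in the KO lines, highest in WT MEFs 2 and KO MEFs 3. Among IGF, FGF, PDGF and hedgehog genes, of 27 tested, 12 were higher and 15 lower (median -0.10), and 9 and 18 without the pair (median -0.12). Gli3, a hedgehog factor of limb pattern, was at 46.5, 59.3 and 49.5 CPM in the WT lines and 37.7, 38.1, 46.8, 52.5 and 38.1 CPM in the KO lines (log2 -0.28, SE 0.17), and the genotypes overlapped.

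**Figure D5:**
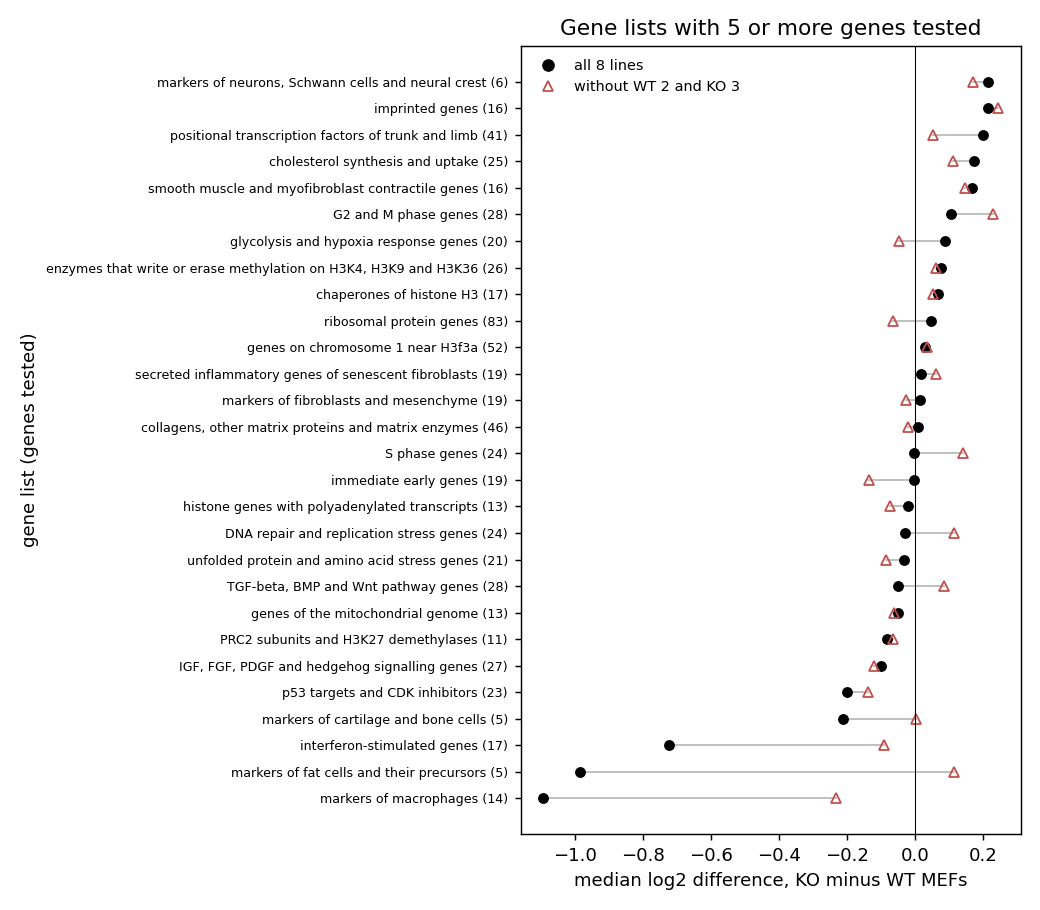
Median log2 difference, KO minus WT MEFs, of each gene list with 5 or more genes tested, over all 8 lines (black) and without WT 2 and KO 3 (red triangles), with the number tested over all lines in brackets. The fat cell list had 5 genes tested over all lines and 4 without the pair, so its 2 medians rest on different genes. Macrophage, fat cell and interferon lists lie at -1.09, -0.99 and -0.72 with all lines and between -0.23 and 0.11 without the pair, and the other lists lie between -0.21 and 0.24 in both fits.

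Whether the genotype difference is the same in another cell type was asked with the 6 neurosphere lines of the series, cultures of neural precursors from the heads of such embryos, 3 WT and 3 KO. Over all 14 lines edgeR called no interaction gene (0 of 12113, 0%), while 366 had an unadjusted p under 0.05, and DESeq2 called 3, Fras1, Pcdha12 and Gnai1. The simulation, again with genes drawn independently, found 45% of 4-fold and 3% of 2-fold interactions. H3f3a had a log2 difference of -6.09 in MEFs and -5.38 in neurospheres, and the difference of the 2, neurospheres minus MEFs, was 0.71 (95% interval -0.33 to 1.75, edgeR adjusted p = 1.00). Gnai1 had mean levels of 15.4 CPM in WT and 27.5 CPM in KO fibroblasts (log2 0.84), and of 22.5 and 10.9 CPM in neurospheres (-1.03). Fras1, an extracellular matrix gene, was at 2.50 and 5.04 CPM in MEFs and 46.1 and 2.47 CPM in neurospheres, and Tusc1 at 23.7 and 18.2 CPM in MEFs and 10.7 and 0.488 CPM in neurospheres. These 3 have the smallest p of the interaction by edgeR, and none passed.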

How the data were processed

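RNA from 8 MEF lines was read with the QuantSeq 3′ FWD kit, per the labels' protocols. Expected counts and TPM per transcript were deposited by the authors, made with Salmon 1.1.0 per the submitters' processing notes, which also name edgeR. For build, transcript set and mapping settings: not given in the sources used here. Of 116945 transcripts, 115560 matched GENCODE M21 (GRCm38) with version and 385 by identifier, and 1000 were left out (0.251% to 0.283% of MEF reads). Expected counts were summed to 35449 genes and rounded, giving 2080821 to 3296203 counts a line. The members, gene lists and tests were chosen with earlier results of these data known, and 3 list symbols were respelled to the annotation's names once the files were read.

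KO and WT lines were compared with edgeR 4.0.16 in R 4.3.3 (TMM, filterByExpr, robust quasi-likelihood test, Benjamini-Hochberg, threshold 0.05). Permutation tests were run on log2 CPM in SciPy 1.17.1, two-sided as that tool gives them (the smaller tail doubled). A permutation of the absolute difference was also computed, and both p-values had been seen before the first was kept as the reported one. Named are H3f3a, H3f3b, passing genes, the 20 smallest p at 10 CPM or more (up to 5 predicted), from each list the 2 highest and the 1 with the smallest p, the 10 largest SDs within genotype at 20 CPM or more, and the 3 smallest p of the interaction. Not every gene this rule names is printed. Further members of the lists, and Taf9, Tpm3 and Gm48499, were picked once their values were known. The deposited TPM (log2(TPM + 1), limma 3.58.1), DESeq2 1.42.0, size factors, 2 filters, voom weights, a sex covariate, all 14 lines, a replicate block and leaving out each line were alternatives. The test was checked on simulated counts for 10785 genes (200 changed, at 10 CPM or more, with 5 wrong calls) and, for the interaction, 12113 genes. Counts were drawn independently for each gene. The labels give WT and KO MEFs the numbers 1 to 3 but state no pairing, so same-numbered lines were not taken as pairs. Their deviations correlated at 0.029, -0.261 and -0.588. These values cannot decide the matter, because WT MEFs 2 and KO MEFs 3, which stand apart, bear different numbers.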

Additional observations from a re-analysis of the deposited data

Results flagged for a closer look

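In the 5 KO lines the highest or lowest value was set apart from the other 4 (gap to the nearest line divided by the range above 0.71) for 13 of 158 values examined. For normally distributed values chance flags about 1 group in 20. Levels of genes were taken as CPM, not log2 CPM, and the values are not independent of each other, so that rate is only a rough guide. Of the 13, 5 (Penk, Abi3bp, Sfrp2, Galnt13 and Gm15387) were examined because of a large spread within genotype, so that rate does not apply to them. KO MEFs 3 accounted for most: it was highest in the first principal component (0.892), Penk (0.997), Abi3bp (0.989), Sfrp2 (0.95), Galnt13 (0.99), Map2 (0.93) and Dkk2 (0.739), and lowest in Hoxc6 (0.777). WT MEFs 2 shared these levels: Penk, which encodes the enkephalin precursor, was at 5409 CPM there and 1773 CPM in KO MEFs 3, against 0 to 5.92 CPM in the other lines.

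KO MEFs 2 was highest in Laptm5 (0.739), a macrophage marker, in Hnrnpu (0.743) and in the mean deviation of S phase genes (0.874). KO MEFs 4 was highest in the pseudogene Gm15387 (1), where the other KO lines had no counts, and lowest in mt-Nd4l (0.807).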

How the results depend on the processing

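H3f3a was called in 19 of 20 fits. With the replicate number as a block its log2 value was -5.81 (edgeR adjusted p = 0.0796) and the count of called genes was 0, with 42 genes at an unadjusted p under 0.05 by edgeR and 1 called at an FDR of 0.1. With each line left out in turn its log2 value ran from -6.22 to -5.79, and 1 gene was called each time. Leaving out WT MEFs 2 and KO MEFs 3 together, added after the data were seen, gave 3 calls, and DESeq2 gave 3 for the interaction. Genes at an unadjusted p under 0.05 by edgeR numbered 175 of 10785 with all lines and 463 of 10643 without KO MEFs 3. They numbered 693 of 10785 with the first residual component as a covariate, and 1 gene was called in each of these fits. The log2 value of H3f3b was 0.151 under the block and -0.202 to 0.164 with each line left out in turn. The summed H3.3-coding level had a log2 value of -1.04 in TPM (exact permutation p = 0.0357) and of -0.919 to -0.568 with each line left out in turn (exact permutation p 0.0571 to 0.190). TPM scales counts by transcript length, whereas these tags count 3′ ends, so the TPM sum weighs the 2 genes differently. In WT MEFs 1 H3f3a was at 448 TPM and H3f3b at 395 TPM, against 833 and 1420 CPM. Permuting the absolute difference gave an exact p of 0.0536 for the sum in CPM and 0.0179 for H3f3a. Without the pair of lines the sum gave -0.717 with an exact p of 0.133, the smallest that 2 against 4 lines can give.

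Of the 20 genes with the smallest p none changed sign under any alternative, and Ak6 alone passed in 1 of them. For the 19 without overlap between the genotypes, leaving out lines could not change the sign. Of the other 98 named genes, none called, up to 23 changed sign (without WT MEFs 2), 18 without the pair, 15 under the block and 14 with voom weights. The count of list members above 0 differed by over 1.5 times from the reported one in 71 of 646 cases. At low levels the intervals were wide: within 2-fold for 3.47% of the genes below 5 CPM and 43.2% of those from 5 to 20 CPM.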

Other observations

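Further genes set WT MEFs 2 and KO MEFs 3 apart, and those given here were chosen from the largest loadings on the first principal component. Sfrp2, a Wnt antagonist, was at 1823 and 585 CPM in these lines and at 4.68 to 34.7 CPM in the other 6. Col10a1, the collagen of hypertrophic cartilage, was at 277 and 374 CPM against 5.10 to 12.5 CPM, and Rspo2, a Wnt agonist of limb outgrowth, at 322 and 138 CPM against 0.341 to 9.76 CPM. Crabp1, which binds retinoic acid inside the cell, was lower at 5.36 and 9.16 CPM against 271 to 626 CPM, and Has2, a hyaluronan synthase, at 6.79 and 9.64 CPM against 74.4 to 153 CPM.

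A pair of neighbouring genes on chromosome 12 alternated between lines without regard to genotype. Fam177a (55124469 to 55142104) was at 97.9, 105, 119 and 132 CPM in WT MEFs 3, KO MEFs 1, KO MEFs 2 and KO MEFs 5 and at 0 in the other 4 lines. 1700047I17Rik2 (55199592 to 55217168) was at 116, 124, 137 and 115 CPM in exactly those other lines, WT MEFs 1, WT MEFs 2, KO MEFs 3 and KO MEFs 4, and at 0 elsewhere. Their sum varied from 97.9 to 137 CPM over all 8 lines. The last 500 bases of the 2 transcripts hold the same 31-base words (100%), so reads from these ends cannot be told apart. Gm28438, a pseudogene on chromosome 1, likewise was at 264, 228 and 246 CPM in WT MEFs 3, KO MEFs 1 and KO MEFs 2 and at 0 in the other 5. Gm4070 on chromosome 7 was at 0, 43.2 and 33.3 CPM in the WT lines and 0, 94.4, 40.5, 33.4 and 0.370 CPM in the KO lines. These genes were chosen for their spread within genotype.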
